A study of Homo sapiens with 16 samples.

Results

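Histone marks of silent and of active genes were examined at 10 genes that mark T cells, NK cells and myeloid cells, in a line labelled as plasma cells. The genes were CD3E, CD4, CD8A and CD5 for T cells, FCGR3A for NK cells, CSF1R and CD14 for monocytes and macrophages, and MPO, S100A8 and S100A9 for granulocytes. The 10 genes stand among 19974 protein-coding genes of chromosomes 1 to 22 and X in the RefSeq table. Several had been chosen by the H3K27me3 peaks of these same lists, in particular by peaks in TKO and not WT. The values are therefore a description, no test is attached to them, and the main counts are given with the share of all genes called by the same rule.

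H3K27me3 is written by Polycomb repressive complex 2 and lies over genes that a cell type keeps silent, often as domains of several kb. H3K4me3 marks the start sites of active and poised genes and is strongest at promoters rich in CpG. NSD2 (also called WHSC1) writes dimethylation of H3K36, a modification that hinders Polycomb repressive complex 2 on the same histone tail, and the t(4;14) translocation of myeloma raises its level. Plasma cells come from B cells and do not use the antigen receptor parts of T cells or the granule proteins of neutrophils.

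All samples came from TKO cells, which the labels describe as plasma cells and as KMS-11, a multiple myeloma line, with the genotype WHSC1(+/-). Plain TKO cells carry no further form in their labels. The other cells were TKO cells labelled with NSD2 carrying the substitution D1240A, with NSD2 carrying F1295A, or with wild type NSD2 (WT). The sources used here do not give how a form was introduced, its level, or whether a line is 1 clone. Chromatin was profiled by ChIPmentation, in which a transposase adds adaptors to immunoprecipitated fragments. Each form had 2 samples for H3K27me3 and 1 each for H3K4me3 and IgG. The results rest on 8 peak lists, 1 per form and mark, so no value has a replicate, and the IgG samples were not analysed here. In chromatin from many cells, a mark in fewer cells and a weaker mark in each cell cannot be told apart.

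There were 5881 H3K27me3 peaks in TKO, 2188 in D1240A, 2083 in F1295A and 3790 in WT, and 7396 to 8239 H3K4me3 peaks per list. The weakest H3K27me3 peaks differed too, with a mean signal at the lowest 1% of 9.45 in TKO, 19.1 in D1240A, 18.4 in F1295A and 10.3 in WT, on the authors' scale. Read depth is unknown, so a missing peak, a shallower library and a higher threshold of calling cannot be told apart. Of 10 plasma cell markers, 6 in TKO, 7 in D1240A, 8 in F1295A and 8 in WT had an H3K4me3 peak, against 47.5%, 49.2%, 52.1% and 51.4% of all genes in the same order, with IRF4, PRDM1 and XBP1 among them in every list. SDC1, which encodes the plasma cell marker CD138, went against the label: its window had H3K27me3 in every list, 8.56 kb in TKO, 8.28 kb in D1240A, 13.3 kb in F1295A and 9.995 kb in WT, and H3K4me3 in F1295A and WT alone of the 4. SLAMF7, a further surface marker, also had H3K27me3, 10.3 kb in TKO, 0 kb in D1240A, 0 kb in F1295A and 5.64 kb in WT, and no H3K4me3 in any list. CD38, another surface marker of plasma cells, had no peak of either mark in any list.

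H3K27me3 lay at 7 of the 10 marker genes in TKO, 3 in D1240A, 5 in F1295A and 5 in WT, where a gene counts if a peak meets its record or the 10 kb on either side by at least 1 bp. The same rule called 18.4% of all protein-coding genes in TKO, 9.36% in D1240A, 9.93% in F1295A and 16.1% in WT. S100A8, S100A9 and CD4 had H3K27me3 in all 4 lists, a pattern of 8.34% of all genes. CSF1R and MPO had it in TKO, F1295A and WT and not in D1240A, and 6.89% of all genes had a peak in WT and not D1240A. That share also counts genes without an F1295A peak. The presence of CSF1R and MPO over all 8 lists was that of 0.616% of genes. CD5 and FCGR3A had it in TKO and in no other list, and 4.36% of all genes had a peak in TKO and not WT. Over all 8 lists the presence of CD5 was that of 2.32% of genes and that of FCGR3A of 1.37%. CD3E, CD8A and CD14 had none, like 79.5% of all genes. No marker gene had H3K27me3 in D1240A or F1295A and not WT (0.145% and 0.235% of all genes). The same held for a peak in WT that TKO lacked (2.04%) or that F1295A lacked (6.41%). The windows of the marker genes were somewhat shorter than usual, with a median of 37.6 kb against 44.2 kb for all genes.

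Summed over the 10 windows, H3K27me3 peaks covered 112 kb in TKO, 38.1 kb in D1240A, 62.0 kb in F1295A and 83.1 kb in WT. These were 26.8%, 9.10%, 14.8% and 19.9% of the windows, against 3.41%, 1.81%, 2.13% and 3.13% of the windows of all genes in the same order of lists.

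**Figure D1:**
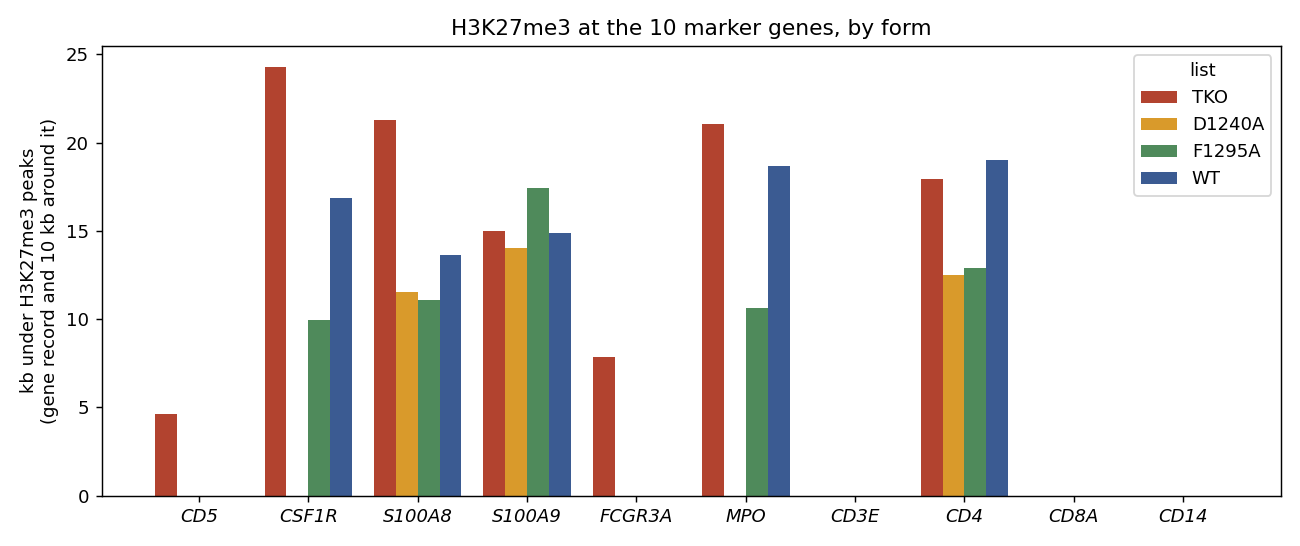
Bars give the kb under H3K27me3 peaks in the gene record and 10 kb around it (y axis) for each of the 10 marker genes (x axis), with 1 bar per list for TKO, D1240A, F1295A and WT. S100A8, S100A9 and CD4 have bars in every list, CSF1R and MPO lack one in D1240A, CD5 and FCGR3A have one in TKO alone of the 4 lists, and CD3E, CD8A and CD14 have none.

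S100A9, a calcium-binding alarmin that fills the cytosol of neutrophils and monocytes, had the most even H3K27me3 across the forms. Its record on chromosome 1 (153357854 to 153361023, GRCh38) is 3.17 kb long, and a single peak covered all of it in each list. Within its window the peak covered 15.0 kb in TKO, 14.0 kb in D1240A, 17.4 kb in F1295A and 14.9 kb in WT. The 4 peaks had 14.0 kb in common out of 17.7 kb marked in any form. By the authors' total signal per peak they stood at percentiles 75.1 of the TKO list, 52.7 of D1240A, 56.8 of F1295A and 67.3 of WT. S100A12, a neighbouring calgranulin gene, has a window that the same peaks met in every list.

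S100A8, the partner of S100A9 in the heterodimer calprotectin, had H3K27me3 in all 4 lists too, but the edge of the peak lay in different places. The record (153390032 to 153422583) is 32.6 kb long, and the 3 start sites that RefSeq gives all lie near its lower end. H3K27me3 covered 21.3 kb of the window in TKO, 11.5 kb in D1240A, 11.1 kb in F1295A and 13.7 kb in WT. The TKO peak began at 153389310, below the record, and covered all 3 start sites. In each of the 4 lists the peak inside S100A8 also met the record S100A15A. In D1240A the nearest peak began 1005 bp from the farthest upstream start site, in F1295A 2376 bp and in WT 993 bp, so in these lists the start sites lay outside. In the lists of TKO and WT a further peak stood beyond the upper end of the record, 6.01 kb wide in TKO and 5.04 kb wide in WT, and the lists of both substitutions had none there. The weaker of the WT peaks stood at percentile 5.30 of its list by total signal.

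The promoter window of S100A9 and the middle one of the 3 of S100A8 are shown because the TKO peak covered both while the other 3 lists covered that of S100A9 and not that of S100A8. Each is the RefSeq window (GRCh38.p14) of 250 bases before to 50 after a start site, 5′ to 3′ on the strand of the gene, with CpG dinucleotides in capitals. The window of S100A8 is chr1:153391024-153391323, minus strand, and that of S100A9 is chr1:153357604-153357903, plus strand.
S100A8: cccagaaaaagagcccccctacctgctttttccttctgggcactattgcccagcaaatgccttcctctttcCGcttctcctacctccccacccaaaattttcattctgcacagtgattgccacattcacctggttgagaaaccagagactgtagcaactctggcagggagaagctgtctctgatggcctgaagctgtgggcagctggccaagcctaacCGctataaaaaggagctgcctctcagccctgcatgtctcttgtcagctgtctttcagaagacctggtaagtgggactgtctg
S100A9: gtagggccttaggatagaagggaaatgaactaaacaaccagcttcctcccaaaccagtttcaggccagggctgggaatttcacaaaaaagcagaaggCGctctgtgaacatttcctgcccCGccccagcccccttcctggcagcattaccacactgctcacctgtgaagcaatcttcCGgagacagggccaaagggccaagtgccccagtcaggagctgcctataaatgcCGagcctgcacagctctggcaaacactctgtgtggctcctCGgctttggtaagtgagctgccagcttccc
The S100A8 window holds 2 CpG and the S100A9 window 5, while the median of 22132 windows of protein-coding genes is 21. Both hold TATAAA at base 222, that is 29 bases before the start site. That motif was searched on both strands (TATAAA and TTTATA) and is present in 9.46% of all windows, also in 1 of FCGR3A. Another window of S100A8 holds it too, but that window overlaps the one shown and the site is the same.

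MPO encodes myeloperoxidase, the peroxidase of neutrophil granules and a marker of the myeloid line. Its record lies on chromosome 17 (58269855 to 58280935). H3K27me3 covered 21.1 kb of the window in TKO, 0 kb in D1240A, 10.6 kb in F1295A and 18.7 kb in WT. The peak ran across the whole record in TKO and WT and covered the lower part in F1295A, where it ended 4.99 kb into the record. All 3 peaks reached into LPO, the lactoperoxidase gene below it. The WT peak stood at percentile 77.1 of its list by total signal. Of the 188 other WT peaks within 2.5 percentile points of that rank, 169 met a D1240A peak (89.9%) and the MPO peak did not. For the TKO peak of MPO, 71.8% of 294 other TKO peaks of like rank met a D1240A peak. The nearest D1240A peak lay 21.1 kb below the record.

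CSF1R, the receptor through which M-CSF drives monocyte and macrophage growth, had the most bases under H3K27me3 of the 10 genes in the full TKO list. With the strongest 2083 peaks of that list, or its stronger 50%, CSF1R had 12.7 kb, below MPO (21.1 kb), S100A8 (15.3 kb) and S100A9 (15.0 kb). Its record lies on chromosome 5 (150053295 to 150113365), and RefSeq gives 2 start sites on the minus strand, an upstream one at 150113365 and an inner one at 150086554. H3K27me3 covered 24.3 kb in TKO, 0 kb in D1240A, 9.96 kb in F1295A and 16.9 kb in WT. The 3 TKO peaks were 6.42, 12.7 and 5.16 kb wide, in order of coordinate. WT had the lower 2, and its first peak started at the same base as in TKO (150062608). F1295A had the middle peak alone, and 99.98% of its bases lay within WT peaks. The nearest D1240A peak was 73.96 kb above the record. Of 188 other WT peaks of like rank, 13.3% met a D1240A peak for the lower WT peak of CSF1R. For its upper WT peak the share was 59.0%.

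At CSF1R both start sites were under a peak in TKO and under none in the other 3 lists. The middle TKO peak ended at 150086947, just past the inner start site, whereas the WT peak ended 1792 bp short of it and the F1295A peak 2262 bp short. The upper TKO peak (150110738 to 150115893) covered the upstream start site and reached into the record of PDGFRB, a receptor of mesenchymal cells. It was a weak peak, at percentile 21.4 of the TKO list by total signal, and 30.3% of 294 other TKO peaks of like rank met a WT peak. The middle TKO peak stood at percentile 66.8. The windows around the 2 start sites are shown because the lists differ exactly there. The upstream window is chr5:150113316-150113615 and the inner one chr5:150086505-150086804, both minus strand.
CSF1R upstream: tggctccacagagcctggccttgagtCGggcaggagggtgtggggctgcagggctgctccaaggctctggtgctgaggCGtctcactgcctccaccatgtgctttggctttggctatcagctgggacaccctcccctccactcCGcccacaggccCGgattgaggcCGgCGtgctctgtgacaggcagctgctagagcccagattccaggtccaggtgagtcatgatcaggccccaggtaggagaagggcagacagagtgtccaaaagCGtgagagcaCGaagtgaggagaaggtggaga
CSF1R inner: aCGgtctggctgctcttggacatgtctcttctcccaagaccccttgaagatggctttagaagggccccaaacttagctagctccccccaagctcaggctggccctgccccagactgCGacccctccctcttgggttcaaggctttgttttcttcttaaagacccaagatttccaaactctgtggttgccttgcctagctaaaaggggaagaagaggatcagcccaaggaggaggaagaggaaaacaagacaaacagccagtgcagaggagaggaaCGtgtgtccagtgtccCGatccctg
They hold 8 and 4 CpG. The inner window holds GAGGAA, the core bound by the myeloid factor PU.1, at bases 231, 237 and 270, and the upstream window does not hold it on either strand (GAGGAA or TTCCTC). On either strand the motif is in 27.9% of all windows, and among the marker genes it was also found in windows of S100A8, S100A9, FCGR3A, CD8A and CD14, so it is not particular to CSF1R.

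CD14, the co-receptor for lipopolysaccharide on monocytes, had no H3K27me3 in its window in any list. The nearest peak lay 282 kb away in TKO, 803 kb in D1240A, 803 kb in F1295A and 800.4 kb in WT. It had an H3K4me3 peak in its window in every list, 1.54 kb wide in TKO, 1.69 kb in D1240A, 2.34 kb in F1295A and 1.94 kb in WT. That peak stood over the RefSeq promoter of TMCO6, a neighbouring gene, and its edge was 5702, 5566, 5173 and 5583 bp from the CD14 start site in the same order of lists.

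**Figure D2:**
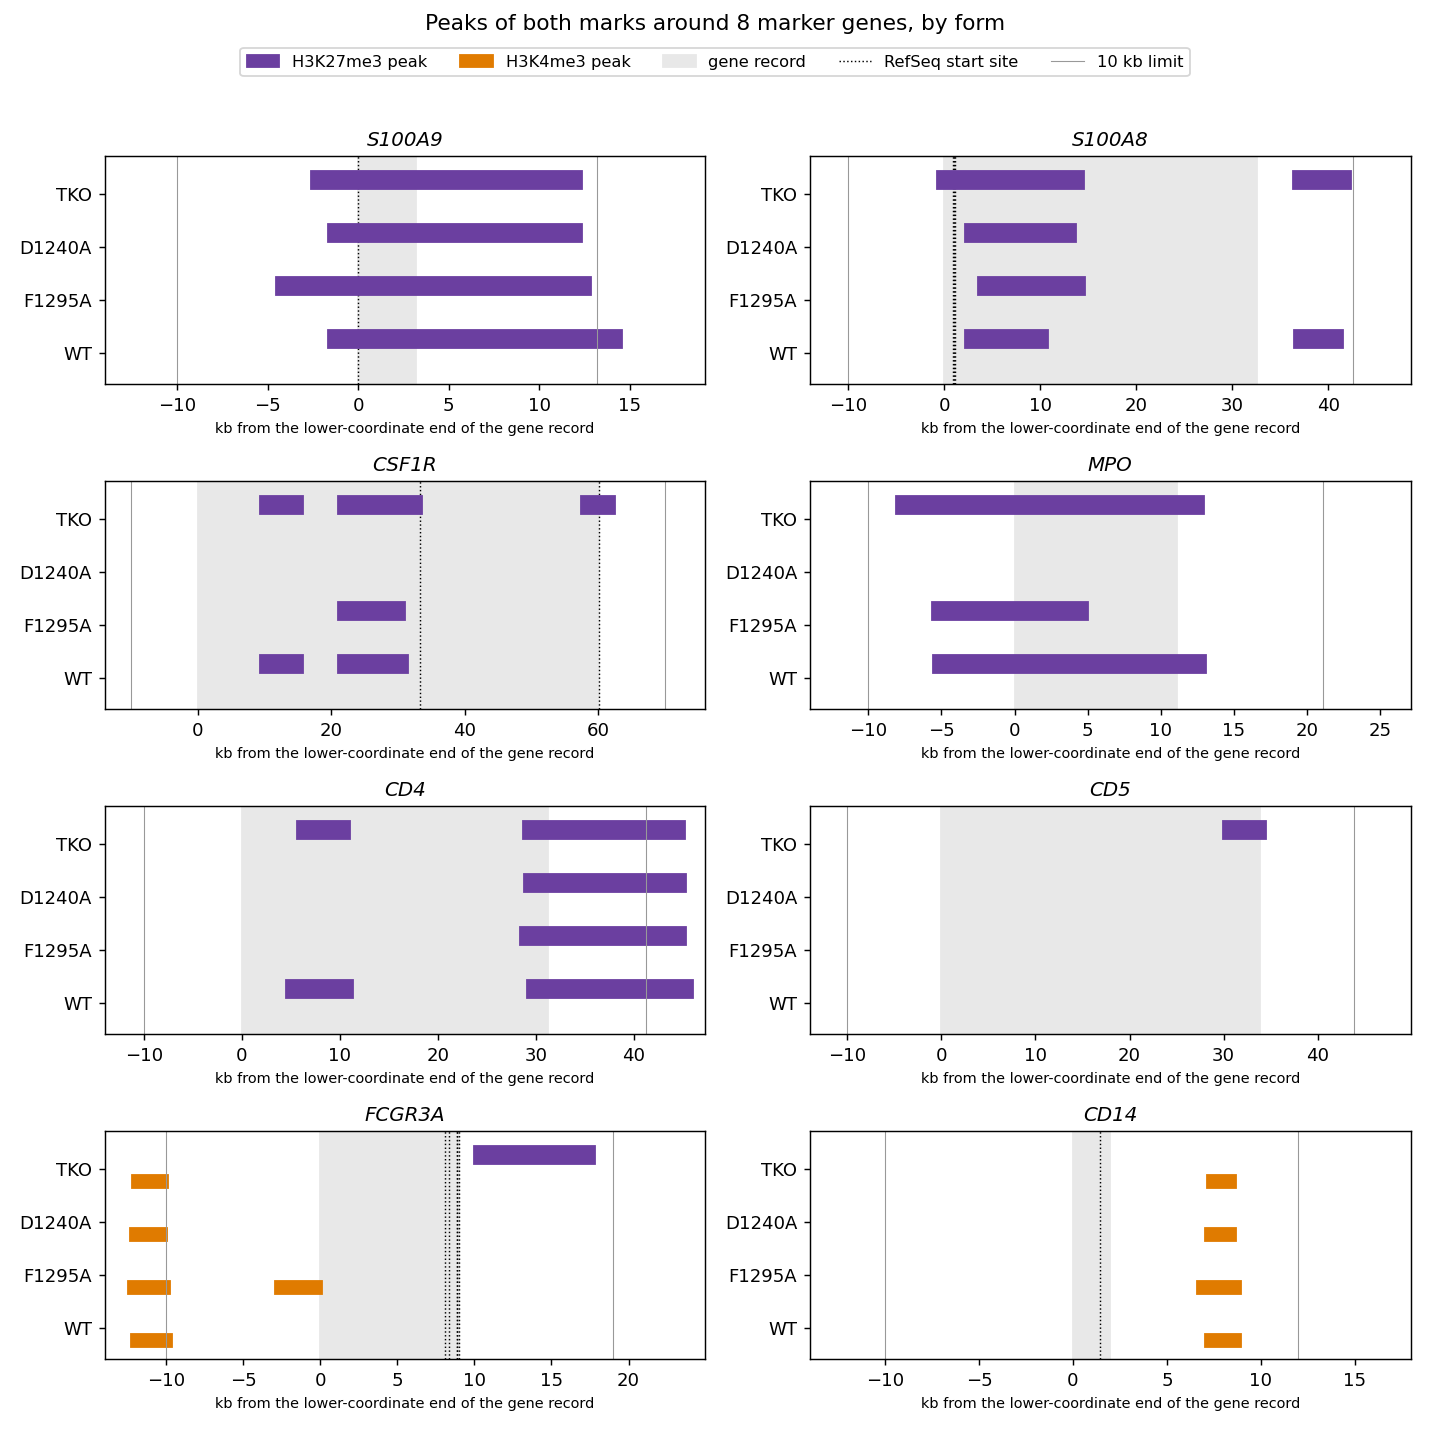
Each panel shows the H3K27me3 peaks (purple) and H3K4me3 peaks (orange) of the 4 lists, with TKO at the top and WT at the bottom, around a marker gene, against the distance in kb from the lower-coordinate end of its record (grey). Dotted lines are RefSeq start sites, where the table has them, and thin grey lines the 10 kb limits. At S100A8 and CSF1R the TKO peaks reach the start sites and the peaks of the other lists end short of them.

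CD4, the co-receptor of helper T cells, had H3K27me3 in every list, and the part shared by all forms lay at the upper end of the record (6789528 to 6820799 on chromosome 12). The window had 18.0 kb under H3K27me3 in TKO, 12.5 kb in D1240A, 12.9 kb in F1295A and 19.04 kb in WT. A peak of 16.5 to 16.9 kb began inside the upper end of CD4 in all 4 lists, met GPR162 and reached the promoter of P3H3, a collagen-modifying enzyme gene. It was the strongest marker gene peak of each list by total signal, at percentiles 88.8, 72.9, 70.1 and 89.9 in the order TKO, D1240A, F1295A and WT. A weaker peak inside CD4, 5.41 kb wide in TKO and 6.85 kb in WT, had no counterpart in D1240A or F1295A. It stood at percentile 11.1 of the TKO list and 14.5 of the WT list. Of 188 other WT peaks of like rank, 5.32% met a D1240A peak and 11.2% an F1295A peak.

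CD5, an inhibitory scavenger receptor of T cells and some B cells, had 4.63 kb of H3K27me3 in TKO and 0 kb in D1240A, F1295A and WT. The TKO peak (61123870 to 61128499 on chromosome 11) lay across the upper end of the record, which ends at 61127852. It was among the weaker peaks of its list, at percentile 8.13 by total signal, and 23.1% of 294 other TKO peaks of like rank met a WT peak. The nearest peak to CD5 was 71.2 kb away in D1240A, 70.3 kb in F1295A and 44.4 kb in WT.

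CD3E, a signalling subunit of the T cell receptor complex, and CD8A, the co-receptor of cytotoxic T cells, had no peak of either mark in their windows in any list. The H3K27me3 peak nearest to CD3E was 37.9 kb away in TKO, 132 kb in D1240A, 131 kb in F1295A and 132 kb in WT. For CD8A the distance was 444 kb in TKO, 991 kb in D1240A, 991 kb in F1295A and 443 kb in WT. CD8A has the promoter windows with the most CpG among the marker genes, with 16, 18, 6 and 25 CpG at its 4 start sites.

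FCGR3A, which encodes the Fc receptor CD16a of NK cells and macrophages, had 7.88 kb of H3K27me3 in TKO and 0 kb in D1240A, F1295A and WT. The TKO peak (161551710 to 161559588 on chromosome 1) did not touch the record, and it began 973 bp upstream of the outermost start site. It stood at percentile 45.7 of the TKO list, and 60.2% of 294 other TKO peaks of like rank met a WT peak. When every H3K27me3 list was held to its strongest 2083 peaks, neither FCGR3A nor CD5 had a TKO peak. FCGR3A has a near-identical neighbour, FCGR3B, so the placing of reads between them is uncertain. FCGR3B had 10.4 kb of H3K27me3 in TKO and 0 kb in D1240A, F1295A and WT.

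H3K4me3 was scarce at the marker genes. FCGR3A and CD14 were the 2 of 10 with a peak in the window, in each of the 4 lists (46.6% of all genes), while 47.5% of all genes had one in TKO, 49.2% in D1240A, 52.1% in F1295A and 51.4% in WT. At FCGR3A the peak only reached the edge of the window, by 91 bp in TKO, 74 bp in D1240A, 212 bp in F1295A and 370 bp in WT, and lay over tRNA genes. F1295A had another H3K4me3 peak, 3.07 kb wide, which ended just inside the lower end of FCGR3A, over a further tRNA gene. It stood at percentile 0.789 of its list by total signal. FCGR3A in TKO was the 1 case among the marker genes in which both marks met a window, with the peaks on opposite sides of the gene. The nearest H3K4me3 peak beyond the 10 kb limit was that of CD4, 20.8 to 21.8 kb away across the lists, and the nearest H3K27me3 peak beyond the limit was that of MPO in D1240A. The other genes without H3K4me3 had it 43.75 to 178 kb away.

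The RefSeq table has promoter windows for 6 of the 10 genes, CSF1R, S100A8, S100A9, FCGR3A, CD8A and CD14, with 16 windows in all. CD3E, CD4, CD5 and MPO have no entry. An H3K27me3 peak met a promoter window of CSF1R, S100A8 and S100A9 in TKO, and of S100A9 in D1240A, F1295A and WT. Among 15812 protein-coding genes with such windows, 6.55% were met in TKO, 3.55% in D1240A, 3.79% in F1295A and 6.50% in WT, and 1.48% in TKO and not WT. A promoter was met in all 4 lists for 2.93% of genes, and in WT and not D1240A for 3.08%. No promoter window of the 6 genes was met by H3K4me3 in any list, while 42.1% of genes were in TKO, 43.8% in D1240A, 46.6% in F1295A and 46.0% in WT.

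All 6 promoter windows under H3K27me3 in TKO were poor in CpG, with 2 to 8 each. Of all windows, 28.0% held 8 or fewer. The median was 13 CpG over all 1334 windows under a TKO H3K27me3 peak, 9 over the 293 windows under a peak in TKO and not WT, and 28 over windows under an H3K4me3 peak in each list. The windows of CD14 (8 CpG) and FCGR3A (2 to 7) were as poor in CpG and lay under no peak, so among the marker genes a low CpG count was found with and without the mark.

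**Figure D3:**
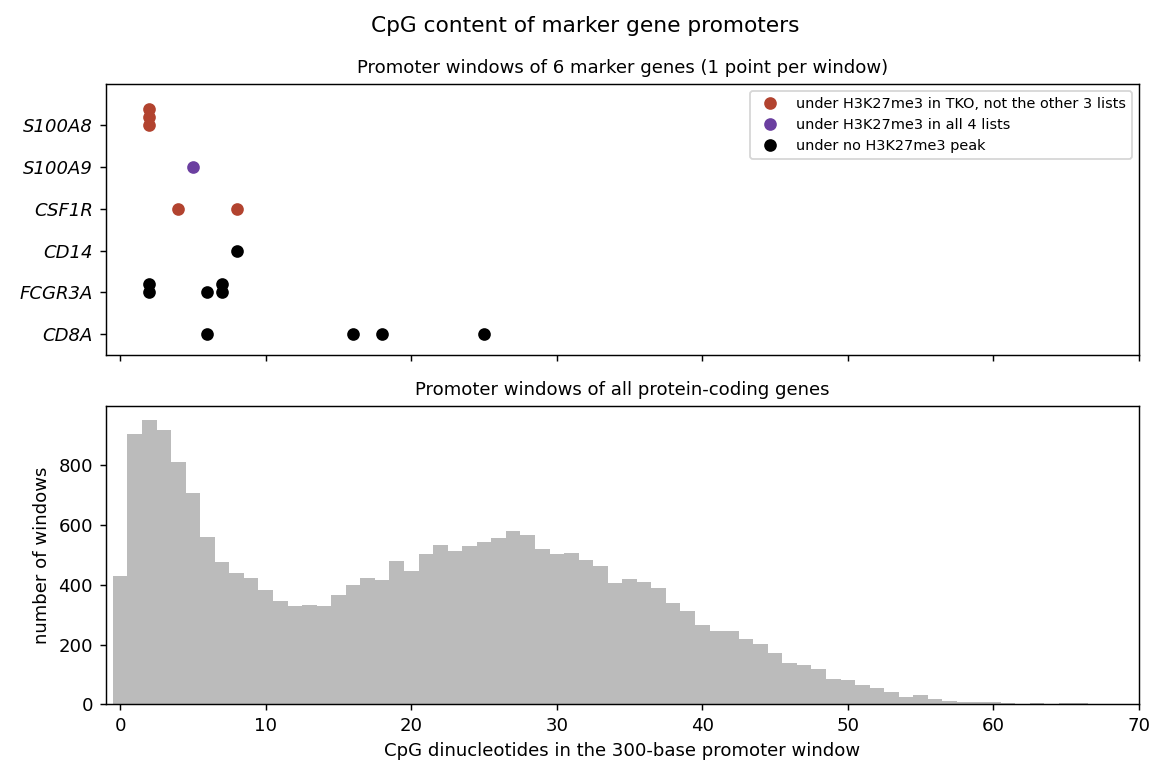
The upper panel gives the number of CpG dinucleotides in each 300-base promoter window (x axis) of 6 marker genes, 1 point per window, coloured by the H3K27me3 lists that cover it. The lower panel gives the number of windows at each CpG count over all protein-coding genes. The windows of S100A8 and CSF1R, under a peak in TKO and not in the other 3 lists, sit at 2 to 8 CpG, and those of CD8A reach 25.

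S100A8, S100A9 and FCGR3A lie on chromosome 1, which holds 10.3% of protein-coding genes and 16.1% to 18.6% of the H3K27me3 peaks of each list. Copy number was not measured here, and its part in these peaks was not tested.

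Wider lists of the same lineages, without the 10 genes, gave the following counts for H3K27me3, where the shares of all genes were 18.4% in TKO, 9.36% in D1240A, 9.93% in F1295A and 16.1% in WT. Of 25 further T cell genes, 5 had a peak in TKO, 3 in D1240A, 3 in F1295A and 5 in WT, which lay near the shares of all genes. For 20 NK cell genes the counts were 6, 0, 1 and 3 in the same order, for 20 monocyte and macrophage genes 6, 4, 4 and 5, and for 20 granulocyte genes 6, 3, 3 and 7. In every list the mark lay at CD6, CD7 and TCF7 among T cell genes, FCN1, CD300E, C1QA and C1QB among monocyte and macrophage genes, and S100A12, CEBPE and EPX among granulocyte genes. At FCN1 the F1295A mark only touched the window, by 0.1 kb, against 13.2 kb in TKO, 17.0 kb in D1240A and 9.82 kb in WT. The S100A9 peak met the S100A12 window in each list, so S100A12 is not separate from the marker genes. No NK cell gene had the mark in every list, and the 6 in TKO included FCGR3B, whose product is a receptor of neutrophils. Of 10 plasma cell markers, 2 had it in TKO, 1 in D1240A, 1 in F1295A and 2 in WT, and of 8 B cell markers 4, 3, 3 and 5 in the same order. The mark was in no list at 20 of the T cell genes (80.0%, against 79.5% of all genes), among them CD3D, CD3G, CD8B and LCK, and at 14 of the NK cell genes, among them GNLY, GZMB and NKG7; these examples were picked after the values were seen.

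Between TKO and WT, 3 of the 20 genes of the NK cell list (15.0%) had H3K27me3 in TKO and not WT, against 4.36% of all genes. They were FCGR3B, CD244, a receptor of the SLAM family, with 7.73 kb, and NCR1, an activating receptor, with 6.69 kb. FCGR3B encodes CD16b, an Fc receptor of neutrophils, so its place in the NK cell list is doubtful. FCGR1A, the high-affinity Fc receptor of monocytes, had 15.7 kb in TKO and 0 kb in D1240A, F1295A and WT. FCGR3B, CD244 and FCGR1A lie on chromosome 1, as FCGR3A does, and NCR1 lies on chromosome 19. H3K4me3 in the FCGR1A window covered 0.147 kb in TKO, 3.19 kb in D1240A, 5.56 kb in F1295A and 2.56 kb in WT. It lay over a promoter window of FCGR1A in no list. For H3K27me3 MMP9, a gelatinase of neutrophil granules, had 0 kb in TKO, D1240A and F1295A and 5.43 kb in WT. The 5 T cell genes marked in TKO were those marked in WT.

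Genes with the mark in WT and not D1240A were 2 of the T cell list, 3 of the NK list, 1 of the monocyte and macrophage list and 4 of the granulocyte list, against 6.89% of all genes. TBX21, the factor of Th1 cells, had 0 kb in D1240A and 9.14 kb in WT. PRF1, the pore-forming protein of killer cells, had 0 kb in D1240A and 8.49 kb in WT. For KLRK1, the receptor NKG2D, the values were 0 kb in D1240A and 4.68 kb in WT. NCR3 had 0 kb in D1240A, 2.501 kb in F1295A and 4.63 kb in WT. SPI1, which encodes PU.1, had 0 kb in D1240A and 4.03 kb in WT. Among granulocyte genes, CSF3R, the G-CSF receptor, had 0 kb in D1240A and 14.7 kb in WT, LCN2 0 kb and 13.2 kb, and CAMP 0 kb and 12.8 kb. All of these genes other than NCR3 had 0 kb in F1295A as well, and 6.41% of all genes had a peak in WT and not F1295A. F1295A was compared with the same WT list as D1240A, so the 2 comparisons share it.

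H3K4me3 stood at 7 or 8 of the 25 T cell genes across the lists, 0 or 1 of the 20 NK cell genes, 3 to 5 of the 20 monocyte and macrophage genes and 7 of the 20 granulocyte genes, against 47.5% to 52.1% of all genes. The NK cell gene was FCGR3B. FCGR2A, among the 7 granulocyte genes, was met by the edge peak of FCGR3A over tRNA genes, but not by that peak alone. The FCGR2A window held 4.74 kb of H3K4me3 in TKO, 7.22 kb in D1240A, 8.18 kb in F1295A and 7.07 kb in WT. The edge peak was 2.295 to 2.72 kb wide across the lists. At promoter windows H3K4me3 stood at 3 of 18 T cell genes and 0 of 14 NK cell genes in every list. For monocyte and macrophage genes it was 1 or 2 of 13, and for granulocyte genes 1 of 16. The share of all genes with promoter windows was 42.1% to 46.6%. In its window CEBPA, a master factor of granulocyte and monocyte precursors, had 0 kb of H3K4me3 in TKO, 4.26 kb in D1240A, 4.82 kb in F1295A and 4.17 kb in WT. CD68, a lysosomal protein of macrophages, had 4.25 kb in its window in F1295A and 0 kb in TKO, D1240A and WT. No list had H3K4me3 over a promoter window of CD68. At FCGR3B the window held 0 kb in TKO, 0.242 kb in D1240A, 1.37 kb in F1295A and 0.663 kb in WT. Over all genes, an H3K4me3 peak in WT was lacking in TKO for 4.21%, and the reverse held for 0.295%. Peaks that WT lacked were found at 0.240% of genes in D1240A and 1.48% in F1295A.

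**Figure D4:**
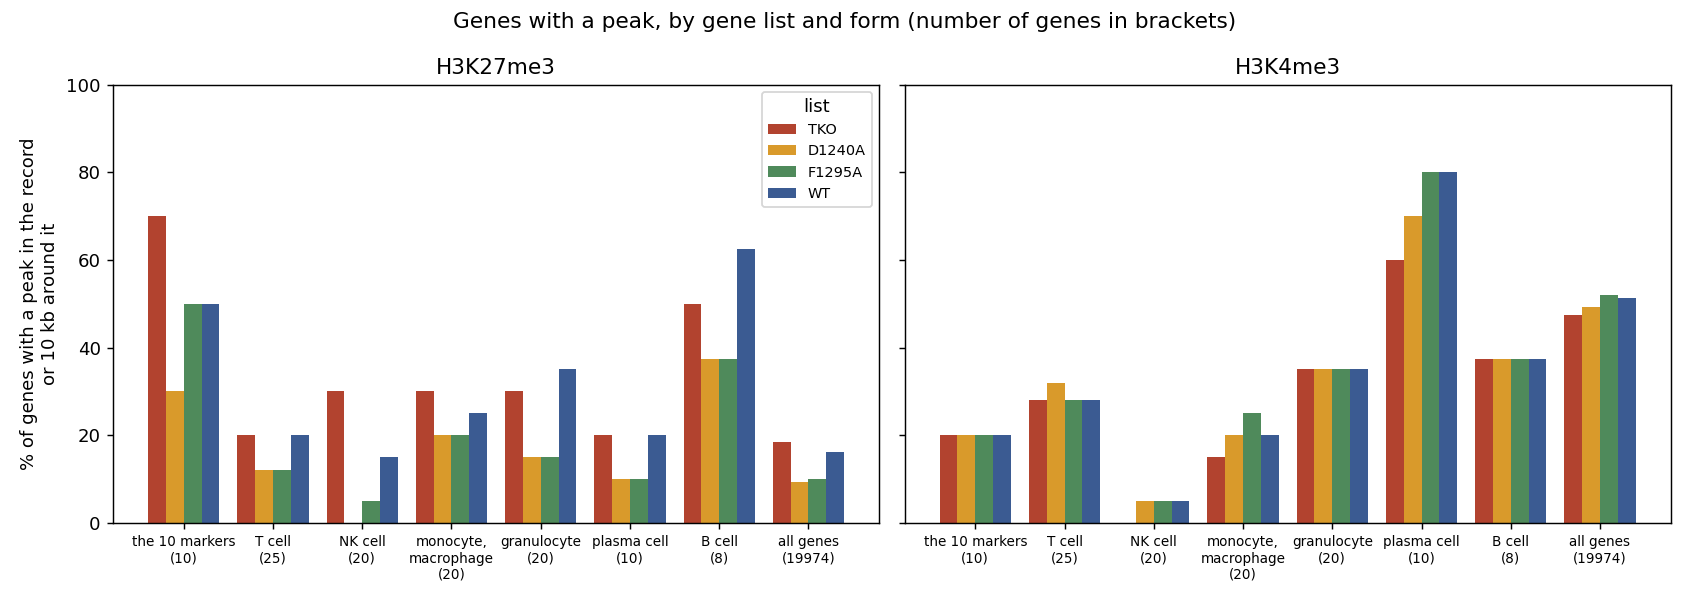
Bars give the percent of genes with a peak of H3K27me3 (left) or H3K4me3 (right) in the record or 10 kb around it, for the 10 marker genes, 4 wider lineage lists, plasma cell and B cell markers and all genes, by list in the order TKO, D1240A, F1295A and WT. The 10 marker genes, several of them chosen by peaks of these lists, reach 70.0% in TKO for H3K27me3, against 18.4% of all genes. The plasma cell markers reach 60.0% to 80.0% for H3K4me3, against 47.5% to 52.1% of all genes.

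The nearest match on another chromosome was sought for the genes with H3K27me3 in some lists and not in others. It was taken by the sum, over the 8 lists, of the absolute difference in percent of the window marked. S100A8 and CD4, which differed in marked bases but had the mark in every list, were not matched. For CD5 these were KRTAP12-3, a keratin-associated protein gene, and IFNGR1, the interferon gamma receptor, at sums of 0.0512 and 0.0739 percentage points. They were LILRA5, a leukocyte receptor gene, and PVRIG, a lymphocyte receptor gene, for CSF1R (9.77 and 9.97), SFTPA1 and CDC20B for FCGR3A (13.2 and 13.3), and TMEM86A and KRTAP5-1 for MPO (8.77 and 11.4). The presence of peaks over the 8 lists was the same as at CD5 in 463 other genes, as at CSF1R and MPO in 123, as at FCGR3A in 273 and as at S100A8, S100A9 and CD4 in 1001.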

How the data were processed

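H3K27me3 and H3K4me3 were measured by ChIPmentation in 16 samples, counting the IgG samples. The submitters' processing notes name Trimmomatic 0.36, FastQC 0.11.4, Bowtie2 2.4.5, SEACR 1.3 and GRCh38. How peaks were thresholded, and against which control, is unknown here. The labels name the same list on the 2 H3K27me3 replicates of each form, without the way they were combined. The deposited lists give a total signal (coverage) for each peak, whose scaling is not stated, so it was used to rank peaks within a list. A percentile is the rank of that total. Read totals are unknown.

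Peaks were set against gene records and promoter windows of RefSeq GRCh38.p14 in Python 3.11.15 with numpy 2.4.6 and pandas 2.3.3, and figures were drawn with matplotlib 3.10.9. The overlap step was tested on simulated data. No test between forms was possible with 1 list each, and no p-values are given. The 10 genes, the lineage lists and the rules were chosen with earlier results of these data known. From each lineage list, up to 3 genes per direction were named by marked bases. The 2 most similar genes were named for each marker gene with H3K27me3 in some forms and not in others. All 103 entries of the lists matched the table, and the values of some named genes are not reported here. Alternatives changed the window, the overlap, the threshold and the list length.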

Additional observations from a re-analysis of the deposited data

How the results depend on the processing

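No paired analysis was possible because both H3K27me3 replicates of a form share 1 list and the other groups have 1 sample. The counts of marker genes were recomputed in 6 other ways, and the ones that moved by over 1.5 times are given here. Within 1 kb of either gene end, H3K27me3 lay at 3 genes in F1295A and 3 in WT, 4 genes (CD5, CSF1R, S100A8 and FCGR3A) had it in TKO without WT and 1 (MPO) in WT without D1240A, and H3K4me3 lay at 0 genes in TKO, 0 in D1240A, 1 in F1295A and 0 in WT. Over the gene record alone, 1 gene had H3K27me3 in TKO and not WT (CD5), while H3K4me3 lay at 0, 0, 1 and 0 genes in the order TKO, D1240A, F1295A and WT. Where a peak had to cover 1 kb of the window, H3K4me3 lay at 1 gene in TKO, 1 in D1240A and 1 in WT. With the stronger 50% of each list, H3K27me3 lay at 2 genes in F1295A, 1 gene (S100A8) had it in TKO without WT and 2 genes (CSF1R and MPO) in WT without F1295A, and H3K4me3 lay at 0 genes in every list. At equal peak numbers (2083 for H3K27me3), S100A8 lost its WT peaks, so 1 gene had H3K27me3 in TKO and not WT, 1 in D1240A and not WT and 1 in F1295A and not WT. Promoter windows, added after seeing the data, exist for 6 of the 10 genes, so CD3E, CD4, CD5 and MPO could not be counted. Among the 6, H3K27me3 lay at 3 genes in TKO, 1 in D1240A, 1 in F1295A and 1 in WT. It lay at 0 in WT and not D1240A, and H3K4me3 lay at 0 genes in every list. These counts are therefore not out of the same genes as the main ones. WT kept its MPO peak and the upper of its CSF1R peaks (10.4 kb) at equal peak numbers and with the stronger 50%. The lower CSF1R peak of WT was lost under both settings. These settings can only remove peaks and so cannot bear on the absence of peaks at CSF1R and MPO from D1240A. The depth of the libraries is unknown and limits every absence stated here.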
